A study of Mus musculus with 36 samples.

Results

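Astrocyte transcripts were examined in single neurons of the mouse midbrain, as the question of whether a neuron's library carries RNA of the glial cells around it. The 9 genes are named astrocyte markers, Gfap, Aqp4, Slc1a2, Slc1a3, Aldoc, Gja1, S100b, Aldh1l1 and Glul, of 55359 genes in the table. They were chosen by name, and all 9 were above 0 in at least 1 cell. A gene's value is the authors' expression signal, named as TPM of exon plus intron (TPM is a length-scaled level), and each cell sums to 2000000.

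The study sequenced 36 neurons, each as a library of its own, from 18 clones of 2 sequenced cells. A clone holds neurons descended from a single radial glia progenitor that was marked on embryonic day 12 by MADM, mosaic analysis with double markers, in which recombination in a dividing cell colours its daughters. All animals carried the MADM alleles M11GTTG. In 11 clones (22 cells) the genotype added Fz10-CreER, a tamoxifen-dependent Cre recombinase driven by Fz10, and in 7 clones (14 cells) Sox2-CreER, driven by Sox2. The tissue labels are sSC (22 cells), dSC (12 cells) and PAG (2 cells, both Sox2-CreER), read here as superficial and deep superior colliculus and periaqueductal grey. By driver, sSC holds 15 Fz10-CreER cells of 11 clones and 7 Sox2-CreER cells of 5 clones, and dSC holds 7 cells of 7 clones and 5 cells of 4 clones. The labels mark no untreated control and name no animal, and give no age at collection for a cell. Which progenitors a driver reaches limits the clones it can mark. In fits without clone as a term, p-values measure the spread between clone means, and several clones may come from 1 animal. Of these clones, 9 gave a mean to both sSC and dSC, and such fits treat the means as independent. Where clone is a term in the fit, p-values measure the spread between the 2 cells of a clone.

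Astrocytes clear glutamate from synapses with the transporters encoded by Slc1a2 and Slc1a3, and Glul turns it into glutamine, which neurons take back up. Aqp4 is the water channel of astrocyte endfeet, and Gja1 (connexin 43) couples astrocytes through gap junctions. Gfap is their intermediate filament, Aldh1l1 a folate enzyme widely used as a pan-astrocyte marker, S100b a calcium-binding protein, and Aldoc a glycolytic aldolase. Some of these are not limited to astrocytes: Aldoc also marks bands of cerebellar Purkinje neurons, where it is known as zebrin II, and S100b and Glul are found in oligodendrocytes too. By identifier, Gfap is ENSMUSG00000020932.15 on chromosome 11, Aqp4 is ENSMUSG00000024411.12 on chromosome 18, Slc1a2 is ENSMUSG00000005089.16 on chromosome 2, Slc1a3 is ENSMUSG00000005360.15 on chromosome 15 and Aldoc is ENSMUSG00000017390.16 on chromosome 11. Gja1 is ENSMUSG00000050953.11 on chromosome 10, S100b is ENSMUSG00000033208.8 on chromosome 10, Aldh1l1 is ENSMUSG00000030088.16 on chromosome 6 and Glul is ENSMUSG00000026473.17 on chromosome 1.

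All 36 cells were labelled as neurons, and 10 of 10 neuron markers had a median of 1 or more. Snap25, a protein of synaptic vesicle fusion, had a median of 2219 and at least 299.8 in each cell. Between 2661 (cell 2 of clone B, sSC) and 16769 genes were at 1 or more, with a median of 12058. Read depth cannot be recovered from these values, which leaves the number of genes detected as the measure of library quality and allows no counting interval. A 0 may be a transcript that was missed, since Tubb3, a neuronal tubulin, was also listed at 0 in 3 cells.

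Astrocyte transcripts were present in each of the 36 cells. At a value of 1 or more, 11 cells held 9 of the 9 genes, 9 cells held 8, 7 cells held 7, 5 cells held 6, 3 cells held 5 and 1 cell held 4. S100b and Glul were at 1 or more in every cell, which 1.45% of all genes in the table were. The summed value of the 9 ran from 142 in cell 2 of clone I to 2671 in cell 1 of clone J, with a median of 1447. That is from 0.00711% to 0.134% of a cell's total. Without the largest member of each cell the median sum was 563.

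The medians of the 9 genes formed a gradual order from Aldoc to Aldh1l1. Aldoc was the highest, with a median of 540.1 between 0 and 2200.4, and ranked 351 by its median among all genes. S100b had a median of 292 between 9.76 and 1703. Glul had a median of 124 between 11.5 and 730.1. These 3 had a median of 100 or more, as did 3.43% of all genes. Aldoc and S100b together made between 36.3% and 98.4% of the sum of the 9, with a median of 76.8%.

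The transporters lay in the middle. Slc1a3 (GLAST) ran from 0 to 268 with a median of 42.1. Slc1a2 (GLT-1), the main glutamate transporter of mature astrocytes, ran from 0 to 187 with a median of 37.9. Both were at 10 or more in most cells, Slc1a3 in 28 and Slc1a2 in 30 of 36. The more restricted markers were lowest, on the same deposited scale. Gfap had a median of 19.5, reached 82.3 and was at 10 or more in 24 cells. Aqp4 had a median of 12.5, reached 179 and was listed at 0 in 11 cells. Gja1 had a median of 11.5, reached 96.6 and was listed at 0 in 10 cells. Aldh1l1 had a median of 0, reached 39.1 and was listed at 0 in 20 cells. Ranges of neighbours in this order overlapped for every pair, from Aldoc and S100b at the top to Gja1 and Aldh1l1 at the bottom.

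**Figure D1:**
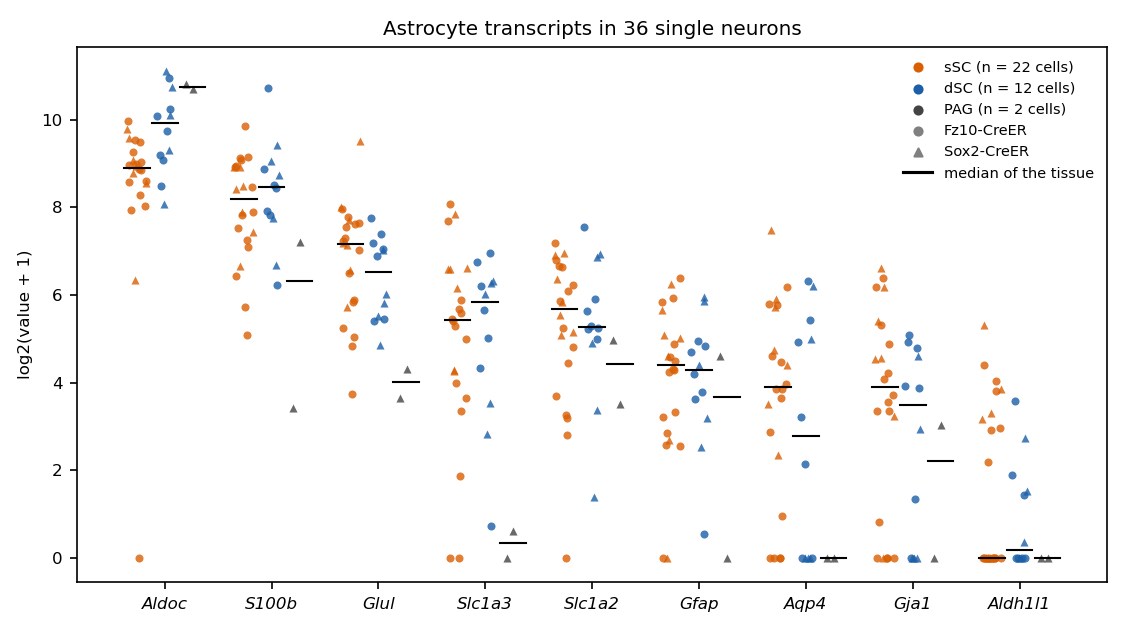
Values of the 9 astrocyte genes as log2(value + 1), each point 1 cell, with colours for tissue (22 sSC, 12 dSC and 2 PAG cells), circles for Fz10-CreER, triangles for Sox2-CreER and bars for the tissue medians. Aldoc, S100b and Glul stand highest, and in the 2 PAG cells Aldoc is high while Aqp4 and Aldh1l1 are at 0.

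The 9 genes peaked in 8 different cells. Cell 2 of clone F (Sox2-CreER, sSC) had the highest Aqp4 (179) and Aldh1l1 (39.1), beside Gja1 at 41.6, Slc1a2 at 81.2 and Slc1a3 at 95.7, and detected 9192 genes. Cell 1 of clone C (Fz10-CreER, dSC) had the highest Slc1a2 at 187. Cell 2 of clone S (Fz10-CreER, sSC) had the highest Slc1a3 at 268, with Aqp4 and Gja1 both listed at 0. The highest Gja1 was in cell 2 of clone N (Sox2-CreER, sSC) and the highest Gfap in cell 2 of clone T (Fz10-CreER, sSC). Cell 2 of clone M (Sox2-CreER, sSC) had the highest Glul at 730.1, while its other 8 genes ran from 8.44 (Gja1) to 376 (Aldoc). Aldoc peaked in cell 2 of clone O (Sox2-CreER, dSC) and S100b in cell 2 of clone L (Fz10-CreER, dSC). By the summed value, the 4 highest cells were cell 1 of clone J at 2671, both cells of clone O at 2488 and 2456, and cell 1 of clone R at 2268. The 4 lowest were cell 2 of clone I at 142, cell 1 of clone T at 440.4, cell 1 of clone A at 534 and cell 1 of clone U at 759.

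The 2 PAG cells held high Aldoc and low levels of several other members. Both listed Aqp4 and Aldh1l1 at 0, Slc1a3 was 0 and 0.544, and Glul was 11.5 and 18.8. Aldoc was 1788 and 1663 in the same cells, and S100b 9.76 and 147. Gfap was 23.4 and 0, Slc1a2 30.5 and 10.4, and Gja1 0 and 7.25, so that Gfap in the first of these cells was above the median of all cells. The 7 genes other than Aldoc and S100b summed to 65.4 and 37.1, against 64.3 to 936 in sSC and 40.4 to 581 in dSC. The profile was not limited to PAG. In dSC, cell 2 of clone O held Aldoc at 2200.4 with Aqp4, Gja1 and Aldh1l1 at 0, and its 7 genes summed to 40.4. Cell 1 of clone B (dSC) held Aldoc at 1220 with Aqp4 and Aldh1l1 at 0 and Slc1a3 at 0.674. Not all dSC cells with high Aldoc did so: cell 1 of clone J held Aldoc at 1967, Aqp4 at 41.8 and Slc1a3 at 124. With 2 cells, both Sox2-CreER, PAG was not tested.

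**Figure D2:**
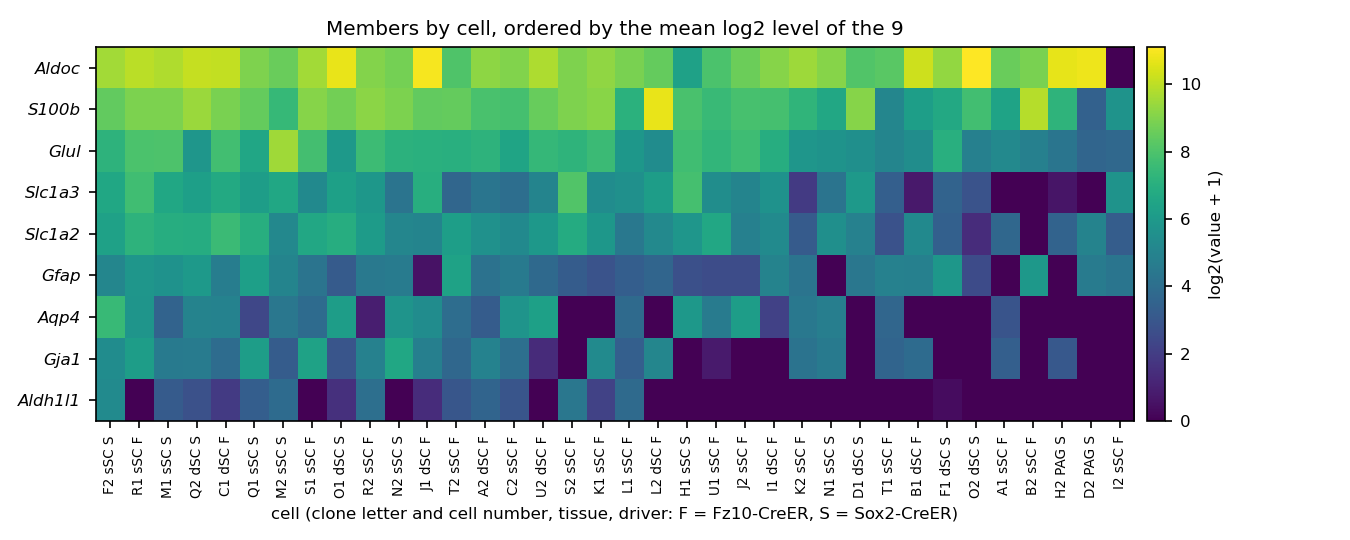
Heat map of log2(value + 1) for the 9 genes (rows) in the 36 cells (columns, ordered by the mean log2 value of the 9), with clone letter and cell number, tissue and driver below each cell. Aldoc, S100b and Glul are high across most columns, while Aqp4, Gja1 and Aldh1l1 are at 0 in many cells on the right. In the 2 PAG cells Aqp4 and Aldh1l1 are at 0, and Gja1 is at 0 in 1 of them.

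Beside the 9, most but not all of a wider list of 35 astrocyte genes was present. A median of 1 or more was reached by 27 of the 35, against 19.8% of all genes, and a median of 100 or more by 9. The median was 0 for 7 of the 35. Cst3 (cystatin C), which microglia also express, was the highest with a median of 5494. It was followed by Sparcl1 (hevin) at 708, the metallothioneins Mt3 at 624 and Mt1 at 421, the lipid carrier Apoe at 383, and Clu (clusterin) at 318. Sox9, a transcription factor of astrocytes, had a median of 1.71. Markers of other cell types were present in the same libraries. A median of 1 or more was reached by 10 of 12 oligodendrocyte genes, with Mbp, a myelin protein, at a median of 1105, and by 12 of 12 microglia genes, with Ctss at 400.4 and Tyrobp at 380. It was reached by 0 of 10 endothelial and mural genes, 0 of 4 genes of oligodendrocyte precursors, and 1 of 9 radial glia and ependymal genes (Fabp7, median 96.2). The part of other cells' RNA in the values of the 9 genes was not tested.

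Relatives of the 9 give a scale for these levels. Aldoa, the aldolase found in most tissues, had a median of 2466 and exceeded Aldoc in 35 of 36 cells. The neurofilament Nefl, with a median of 352, exceeded Gfap in 36 of 36 cells. Slc1a1 (EAAC1), the neuronal glutamate transporter, had a median of 24.6, and Slc1a2 was above it in 23 cells and Slc1a3 in 21. Gjb6, the other connexin of astrocytes, had a median of 0, but was at 10 or more in 16 of 36 cells and reached 1402. Of 13 genes of the glutamate and glutamine cycle, with Slc1a2, Slc1a3 and Glul among them, 11 had a median of 1 or more. In none of the comparisons below did a gene of that list pass.

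Across cells the genes did not all move together. Over the 36 cells, which share clones and differ in genes detected, 32 of 36 pairs of the 9 had a Spearman correlation above 0 (88.9%), with a median of 0.27 and a range from -0.04 to 0.64. Among all pairs of 11077 genes at 1 or more in at least 18 cells, 70.7% were above 0 and the median was 0.10. Slc1a2, Slc1a3 and Glul, the genes of glutamate uptake and conversion, had the 3 highest values: 0.64 for Slc1a2 with Slc1a3, 0.63 for Slc1a2 with Glul and 0.60 for Slc1a3 with Glul. Aldoc ran apart, with -0.04 with Slc1a3, -0.02 with Glul, -0.02 with Gfap and 0.06 with Aqp4, and 0.19 with Slc1a2. These are descriptions of 36 cells.

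The mean log2 value of the 9 ran with that of the 35 other astrocyte genes, at a Spearman correlation of 0.86. It was 0.68 with oligodendrocyte genes, 0.40 with endothelial genes, 0.22 with neuron genes and 0.17 with microglia genes. With the number of genes detected it was 0.40. Taken singly, the 9 ran from -0.01 (S100b) to 0.47 (Gja1) with that number. The median was 0.27 over 11077 single genes at 1 or more in at least 18 cells. Against the lists, too, single genes differed. Slc1a2 had 0.72 with the other astrocyte genes and 0.61 with oligodendrocyte genes. Gja1 had 0.68 and 0.32, and Aldoc 0.17 and 0.07. With neuron genes, Slc1a3 had -0.32, while Gja1 had 0.44, Aqp4 0.27 and Slc1a2 0.26, and the other 5 lay between -0.03 and 0.18.

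The genes most like the mean of the 9 across cells were Plpp3 (0.72), a lipid phosphatase of astrocytes, then Csrp1, Cplx2, Slc39a9, Gpr37l1, Agt, Dpysl2, Nfix, Tnfrsf19 and Etv1, down to 0.62. Plpp3 and Agt are in the list of 35, so their likeness repeats the correlation with that list. Gpr37l1 encodes a receptor of astrocytes, Dpysl2 a protein of growing axons and Cplx2 one of synaptic vesicles. For single genes other than Aldoc and S100b the best matches were Plpp3 for Slc1a3 (0.68), Zbtb20 for Slc1a2 (0.67), Pou3f1 for Glul (0.65), Clic4 for Gfap (0.65), Gm12264 for Aqp4 (0.70) and Rnf112 for Gja1 (0.73). Among the closest matches of Aldoc were Myo10 (0.61) and Npas3 (0.60). After Plpp3, the best matches of Slc1a3 were Slc1a2 and Glul. Aldh1l1, at 1 or more in 15 cells, was below the minimum for this search.

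S100b was most like Dip2a (0.80, and 0.85 without cell 2 of clone B). Dip2a overlaps S100b on the opposite strand in the annotation, and the use of strand in counting is not given in the sources used here. Reads in the stretch that the pair shares therefore cannot be told apart, and the length of that stretch was not examined. Dip2a ran from 14.3 to 206 with a median of 82.4. It was below S100b in 35 of 36 cells. In the cell with the highest S100b, cell 2 of clone L, Dip2a was 196, and in the cell with the lowest, cell 2 of clone D, 28.8. The next best matches of S100b were mt-Nd6 (0.63) and Col1a1 (0.62). Gfap, Aqp4, Slc1a2, Aldh1l1 and Glul also overlap an annotated gene on the opposite strand, each with a median of 0 where it was measured. Slc1a3, Aldh1l1 and Glul overlap annotated genes on their own strand, each with a median of 0, and Aldoc and Gja1 overlap none.

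**Figure D3:**
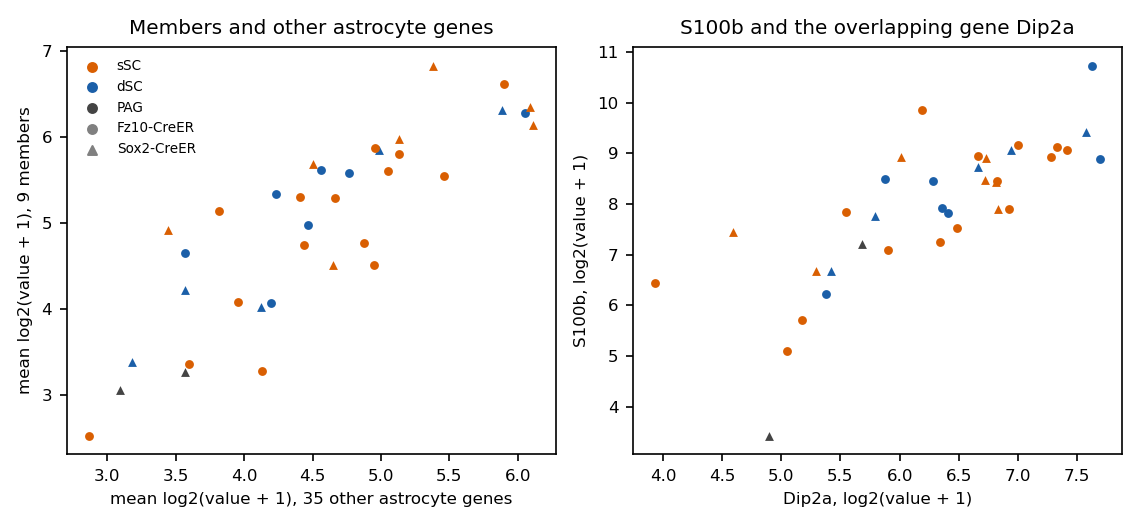
Left, the mean log2(value + 1) of the 9 genes against that of 35 other astrocyte genes, 1 point per cell (Spearman correlation 0.86 over 36 cells). Right, S100b against Dip2a, which overlaps it on the opposite strand, both as log2(value + 1) (0.80), with colours for tissue and shapes for driver as in the plot of the 9 genes by tissue.

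The upstream sequences of Slc1a2, Slc1a3 and Glul are shown because these 3 genes ran together most closely across cells. The 250 bases before each start site (RefSeq, GRCm38.p6) were read 5′ to 3′ on the gene's strand, with capitals marking TTGGC or its reverse complement GCCAA. These letters form the short site of nuclear factor I proteins, the family of Nfix, which was among the 10 genes most like the mean of the 9, and GCCAA also lies within the CCAAT box GCCAAT. The window of Slc1a2 lies at chr2:102706188-102706437 (plus strand), that of Slc1a3 at chr15:8710808-8711057 (minus strand) and that of Glul at chr1:153899679-153899928 (plus strand).
Slc1a2: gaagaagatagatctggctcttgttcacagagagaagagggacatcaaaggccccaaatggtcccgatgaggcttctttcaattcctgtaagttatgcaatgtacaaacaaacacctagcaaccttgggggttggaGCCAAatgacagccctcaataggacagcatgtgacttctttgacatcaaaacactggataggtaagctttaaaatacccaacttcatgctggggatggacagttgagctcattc
Slc1a3: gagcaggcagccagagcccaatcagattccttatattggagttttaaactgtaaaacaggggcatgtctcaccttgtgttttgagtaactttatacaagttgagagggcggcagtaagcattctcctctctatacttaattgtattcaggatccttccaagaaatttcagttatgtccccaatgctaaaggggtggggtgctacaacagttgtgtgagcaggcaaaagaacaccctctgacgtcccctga
Glul: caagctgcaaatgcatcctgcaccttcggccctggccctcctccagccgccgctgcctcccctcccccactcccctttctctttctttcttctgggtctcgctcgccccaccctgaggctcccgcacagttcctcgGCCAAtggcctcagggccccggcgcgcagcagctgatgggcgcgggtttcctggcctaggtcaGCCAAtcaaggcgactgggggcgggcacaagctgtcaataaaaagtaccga
Slc1a2 held 1 match, Glul held 2 and Slc1a3 held 0, and 41.5% of 32851 such windows held at least 1. No factor's binding was measured here, and the files' build, GRCm39, is not that of these windows.

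Deep cells had higher Aldoc than superficial cells in these data, and the tissue difference did not pass the test over all genes. In sSC, Aldoc ran from 0 (cell 2 of clone I) through a median of 479 to 999. In dSC it ran from 269 through 973 to 2200.4, and in PAG it was 1788 and 1663. The ranges overlapped between sSC and dSC. A cutoff of 1000 was chosen after the values were seen. It lies just above the highest sSC value, so 0 of 22 sSC cells exceed it by that choice. Above it were 6 of 12 dSC cells and 2 of 2 PAG cells, counting cells and not clones. On the log2 scale over clones, sSC was 8.20 ± 2.32 (SD, n = 16) and dSC 9.66 ± 0.92 (SD, n = 11). limma gave -1.46 (SE 0.69, unadjusted p = 0.0413, adjusted p = 0.941) for sSC minus dSC. Without clone I, whose sSC cell is listed at 0, it was -0.97. Blocking on clone gave -1.87 (SE 0.81, limma adjusted p = 0.529).

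Of 14613 genes tested between tissues, 0 passed an adjusted p of 0.05 (0% called, against 5.16% at an unadjusted p under 0.05), and of the 9 astrocyte genes 0 passed, with 1 (Aldoc) at an unadjusted p under 0.05. Blocked, 1 gene passed (0.00684% called), none of the 9, and 7 of the 9 were below 0 against 76.9% of all genes. Below 0, that is lower in sSC, were 5 of the 9, against 67.3% of all genes, and the median of the 9 was -0.22 against -0.31 for all genes. Aldoc at -1.46 was lowest, then S100b at -0.47 (SE 0.51), Slc1a2 at -0.31, Slc1a3 at -0.23 and Gfap at -0.22. Without clone L, S100b was -0.18, and without clone B -0.82. The 4 above 0 were Aqp4 at 0.98 (SE 0.88, and 0.46 without clone F), Aldh1l1 at 0.63, Gja1 at 0.38 and Glul at 0.16. The directions of Gfap, Slc1a2, Slc1a3, Gja1 and Glul turned under at least 1 alternative, and Gja1 and Glul were below 0 with the block. The 35 other astrocyte genes had 15 below 0 and a median of 0.10, while microglia genes had 11 of 12 below 0 and a median of -1.01, and neuron genes -0.20. The part of microglial RNA in these differences was not tested. With the number of genes detected (median 11863 in sSC and 12202 in dSC) as a covariate, 4 of the 9 were below 0 and their median was 0.21 against 0.07 for all genes. All the differences in this paragraph are in log2(value + 1) from limma.

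The 9 clones sampled in both tissues gave the same comparison within a progenitor's offspring. Aldoc was lower in the sSC cell in 7 of 9 clones, with a median difference of -1.18 on the log2 scale, and S100b in 7 of 9 with -0.97. As limma differences with clone as a block, Aldoc was -1.87 and S100b -0.60. The median over all 14613 genes in that fit was -0.66, so S100b lay near the median gene. In clone I, Aldoc was listed at 0 in the sSC cell and was 538 in the dSC cell. In clone J it was 390.2 and 1967. Slc1a2 was lower in sSC in 6 of 9 clones and Glul in 5 of 9. S100b was higher in the sSC cell in clone B (923 against 73.8) and in clone F (344 against 102), whose sSC cells detected 2661 and 9192 genes.

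**Figure D4:**
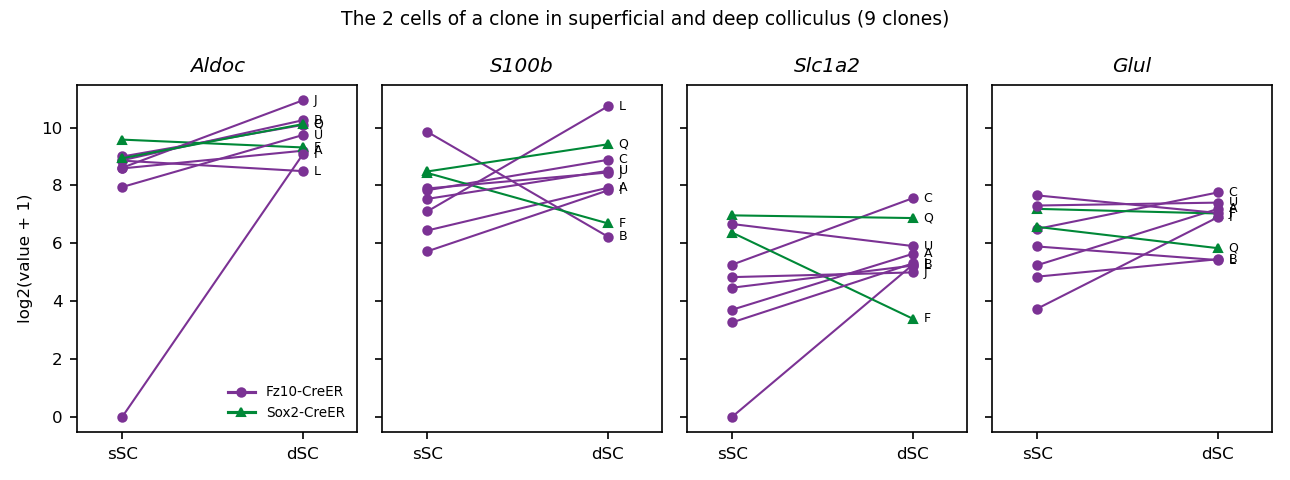
Aldoc, S100b, Slc1a2 and Glul as log2(value + 1) in the sSC and dSC cells of 9 clones, each line 1 clone with its letter at the right, purple circles for Fz10-CreER (7 clones) and green triangles for Sox2-CreER (2 clones). Aldoc and S100b are higher in the dSC cell in 7 of 9 clones each.

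In sSC, values of all 9 genes were on average lower in Fz10-CreER clones than in Sox2-CreER clones, and none passed the test over all genes. Slc1a3 ran from 0 through a median of 38.1 to 268 in the 15 Fz10-CreER cells and from 18.2 through 95.7 to 229 in the 7 Sox2-CreER cells. The groups overlapped. On the log2 scale over clones they were 4.21 ± 2.35 (SD, n = 11) and 6.30 ± 1.29 (SD, n = 5), a limma difference of -2.09 (SE 1.18, unadjusted p = 0.0872, adjusted p = 1.00). Aqp4 ran from 0 through 13.4 to 71.8 in Fz10-CreER cells, with 4 of 15 listed at 0, and from 4.09 through 25.7 to 179 in Sox2-CreER cells, with 0 of 7 listed at 0. Slc1a2 ran from 0 through 37.3 to 145 and from 33.1 through 56.0 to 124. For these 2 genes the lowest value was in the Fz10-CreER group, and the ranges overlapped.

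Of 14320 genes tested between drivers in sSC, 0 passed in limma (0% called, 4.1% at an unadjusted p under 0.05, 0 of the 9 among them), and the smallest adjusted p of the 9 was 1.00. Below 0 were 9 of the 9 against 66% of all genes, with a median of -1.20 against -0.38. After Slc1a3 came Aqp4 at -1.84 (SE 1.17), Gja1 at -1.60 (SE 1.20), Slc1a2 at -1.50 (SE 1.08), Aldh1l1 at -1.20, Glul at -1.04, Aldoc at -0.58, Gfap at -0.57 and S100b at -0.39. Without clone I, Aldoc was 0.22. Without clone F, Aqp4 was -1.21 and Aldh1l1 -0.48, and without clone H, Gja1 was -2.66. The list of 35 other astrocyte genes had 26 below 0 and a median of -0.42, close to that of all genes. Oligodendrocyte genes had a median of -0.20, neuron genes -0.08 and microglia genes 0.12. The number of genes detected was lower in Fz10-CreER cells (median 11544) than in Sox2-CreER cells (median 13450). With that number as a covariate 9 of the 9 were below 0, with a median of -0.82 against 0.13 for all genes. Gja1 was then -0.70, Slc1a2 -0.84 and Aldoc -0.16, while Slc1a3 was -1.87 and Aqp4 -1.72.

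**Figure D5:**
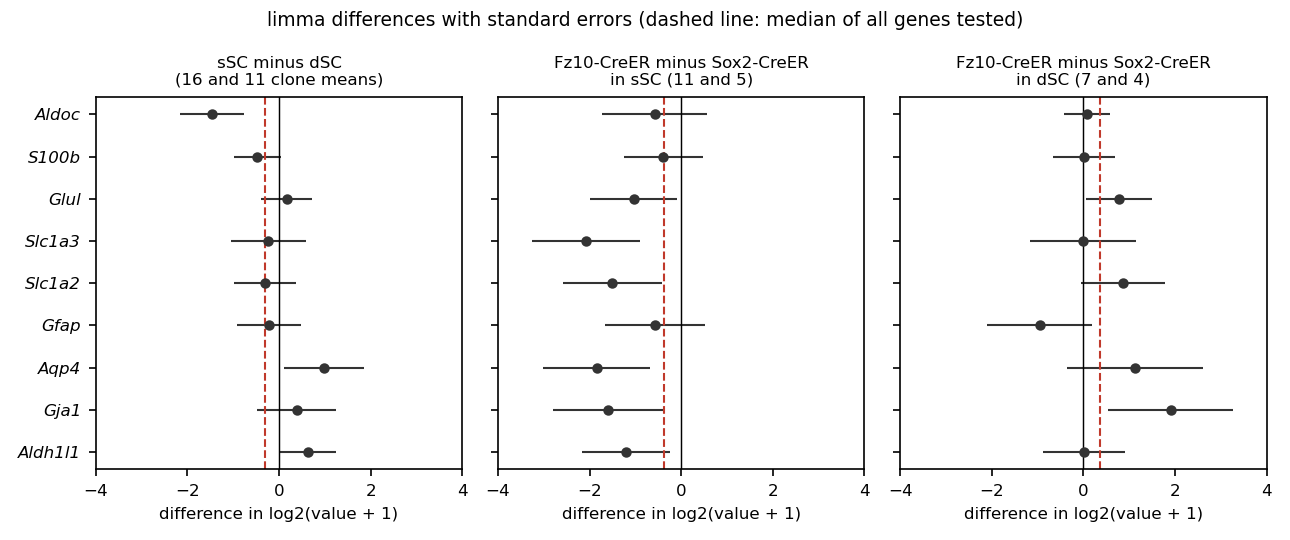
limma differences in log2(value + 1) with standard errors for the 9 genes, for sSC minus dSC (16 and 11 clone means) and for Fz10-CreER minus Sox2-CreER in sSC (11 and 5) and in dSC (7 and 4). All 9 points lie below 0 in the middle panel, where the dashed line, the median of all genes, is at -0.38, and 7 of 9 lie above 0 in the right panel.

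In dSC 7 of the 9 differences between drivers lay above 0, 3 of them at 0.08 or less, and none of the 9 passed. Aldoc ran from 359 through 855 to 1967 in the 7 Fz10-CreER cells, and in the 5 Sox2-CreER cells it was 269, 635, 1111, 1712 and 2200.4. Gja1 ran from 0 through 14.1 to 32.97 in Fz10-CreER cells, and was 0, 0, 0, 6.66 and 23.3 in Sox2-CreER cells. Both genes overlapped between drivers. Of 16310 genes, 1 passed in limma (0.00613% called), none of the 9. At an unadjusted p under 0.05 were 0 of the 9, against 4.81% of all genes. The 7 of 9 above 0 stand against 63.5% of all genes, and the median of 0.08 against 0.37; the directions of Slc1a3, Aldoc, S100b and Aldh1l1 turned under at least 1 alternative. The limma difference was 1.91 (SE 1.36) for Gja1, 1.13 (SE 1.49) for Aqp4, 0.87 for Slc1a2, 0.78 for Glul and -0.96 (SE 1.15) for Gfap. Microglia genes were above 0 in 12 of 12, with a median of 1.14, and the part of this was not tested.

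The driver differences of sSC and dSC were compared with each other in the interaction fit. Of 14613 genes 1 passed in limma (0.00684% called), and 0 of the 9 did. At an unadjusted p under 0.05 were 0 of the 9, against 5.78% of all genes. Below 0 were 8 of 9 against 71.5% of all genes, with a median of -1.82 against -0.80; the directions of Gfap, Aldoc and Aldh1l1 turned under at least 1 alternative. Gja1 had the lowest value, -3.51 (SE 1.77, unadjusted p = 0.0549, limma adjusted p = 0.862), and -5.26 with clone as a block (unadjusted p = 0.0264, limma adjusted p = 1.00). The blocked value rests on the clones with a cell in both tissues, 7 of Fz10-CreER and only 2 of Sox2-CreER.

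The 2 cells of a clone showed little likeness in most of the 9 genes. The correlation between the 2 cells of a clone, over 18 clones, was 0.41 for Gfap, 0.27 for Glul, 0.21 for Gja1 and 0.10 for Slc1a3. It was between -0.35 (S100b) and -0.03 (Aqp4) for the other 5 genes, against a median of -0.03 over 11077 genes. The median gap within a clone was smallest for Aldoc, 1.01 on the log2 scale, and largest for Aqp4, 1.93. In the clone fit over 15132 genes, 3 passed (0.0198% called), and 0 of the 9 did, with 1 of the 9 at an unadjusted p under 0.05 against 7.8% of all genes. The smallest p of the 9 was that of Slc1a3 (moderated F 2.26, unadjusted p = 0.0365, limma adjusted p = 0.606).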

How the data were processed

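Libraries were made with a SMART-Seq kit from polyadenylated RNA, per the labels' protocols. The submitters' processing notes name STAR 2.7.9a, R 4.0.3 and GRCm39. How strand was used, which annotation served and how the values were computed is not given in the sources used here. Values deposited in the table are, by the table's name, a signal of exon plus intron TPM per gene and cell. Every cell sums to 2000000, so it was not treated as plain TPM and keeps no depth. The plan had assumed plain TPM; its log-scale tests were used unchanged.

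Values were taken as log2(value + 1), a scale that understates differences of low genes. Symbols came from GENCODE M21, matched on the gene identifier for 52083 genes. A gene was tested if 25% or more of the compared cells had it at 1 or more. limma 3.58.1 (R 4.3.3) was run with eBayes, trend and robust on, and p-values were adjusted by Benjamini-Hochberg (threshold 0.05). Cells of 1 clone and tissue were averaged. The fits were tested on simulated data. Levels and Spearman correlations came from scipy 1.17.1, pandas 2.3.3 and numpy 2.4.6 under Python 3.11.15.

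Both cells of a clone descend from 1 progenitor and so share an animal, which pairs them, and blocked fits were run. Deviations of paired cells from their tissue means had correlations between -0.02 and 0.07 over 14613 genes, with 0 of 9 pairs above 0.1. The 9 genes and the lists were chosen with earlier results of these data known. The named genes rule takes all 9, up to 6 genes of highest median per other list, the 10 most like the mean of the 9 and the 3 most like each, with cells named by highest and lowest sums and by the top value of a gene. Sox9, Gjb6, Tubb3 and the relatives were named beside it, chosen after their values were seen. Some results that the rule gives are not reported here. Alternatives changed the pseudocount, filter, scaling, covariate, fit and clones.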

Additional observations from a re-analysis of the deposited data

Results flagged for a closer look

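Among 27 combinations of gene, tissue and driver with 4 to 10 clones, 4 had a clone far from the others, where chance gives about 1 in 20. In Fz10-CreER dSC clones, on the log2(value + 1) scale, Gfap was 0.54 in clone J, the highest cell by the summed value, against 3.64 to 4.96 in the other 6. Slc1a2 was 7.56 in clone C against 4.99 to 5.90. Slc1a3 was 0.74 in clone B against 4.33 to 6.97, in a cell with Slc1a2 at 37.2. In Sox2-CreER sSC clones, Aldoc was 6.35 in clone H against 8.93 to 9.58, in a cell that detected 6180 genes and had the highest Slc1a3 of its group, 229.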

How the results depend on the processing

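Depth is unknown, PAG has 2 cells, and none of the 9 genes passed in any comparison under any alternative run (smallest limma adjusted p 0.529). The count of genes passing between tissues was 0, and 1 at pseudocount 10, with quantile normalization and with clone as a replicate block. In sSC the driver count was 0, and 1 at pseudocount 10. In dSC it was 1, and 0 without trend and robust. For the interaction it was 1, and 0 under pseudocount 10, no filter, quantile normalization, genes detected as a covariate, no trend and robust, leaving out the cell with the fewest genes, and the replicate block. For the clone effect it was 3, 6 at pseudocount 0.1 and 60 with no filter. Leaving out 1 clone at a time gave 0 to 1 between tissues (1 without clone B, D, N, O or T), 0 to 5 for driver in sSC (5 without clone H, 1 without F) and 0 to 2 in dSC (0 without D or F, 2 without L or Q). Leaving out the cell with the fewest genes gives no separate value in dSC, since that cell is from sSC.

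The median tissue difference of all genes moved from -0.31 to -0.01 under quantile normalization and 0.07 with the covariate, and the driver median in sSC from -0.38 to 0.01 and 0.13. Between tissues, Gfap became 0.28 (quantile), Slc1a2 0.033 (quantile), 0.21 (covariate) and 0.026 (without the cell), Slc1a3 0.093 (without the cell), and with the block Gja1 became -0.60 and Glul -0.57. In dSC, Slc1a3 became 0.13 (pseudocount 10) and 0.081 (covariate), Aldoc -0.25 (covariate), S100b -0.050 (quantile), and Aldh1l1 -0.24 (pseudocount 0.1), -0.66 (quantile) and -0.67 (covariate). In the interaction, Gfap became -0.25 (block), Aldoc 0.086 (covariate) and Aldh1l1 0.32 (quantile). With 1 clone left out, the ranges that crossed 0 were, between tissues, Gfap -0.49 to 0.050, Slc1a2 -0.60 to 0.014, Slc1a3 -0.50 to 0.017 and Gja1 -0.044 to 0.80, in sSC Aldoc -1.14 to 0.22, and in dSC Slc1a3 -0.53 to 0.72, Aldoc -0.43 to 0.51, S100b -0.55 to 0.36 and Aldh1l1 -0.41 to 0.61. The cause of these turns was not tested. Other moves kept their sign: at pseudocount 10 in sSC, Slc1a3 was -1.33, Aqp4 -0.99, Slc1a2 -0.98, Gja1 -0.90, Aldh1l1 -0.49 and Aldoc -0.30, and with quantile normalization Aqp4 was -1.03, Glul -0.60 and Aldh1l1 -0.41. In sSC, 9 of 9 genes stayed below 0 under the 7 alternatives other than leaving out a clone in turn. Alternatives leaving out that cell for levels were chosen after the data were seen.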
